A study of Mus musculus with 4 samples.

Results

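The gene rows examined here are the nuclear-encoded subunits of oxidative phosphorylation (OXPHOS), the machinery of the inner mitochondrial membrane. They were chosen by symbol alone, as the rows named Ndufa, Ndufb, Ndufc, Ndufs or Ndufv with a number, Sdha to Sdhd, Uqcr, Cox4 to Cox8, or Atp5. This took 84 of the 23284 gene rows, and 81 of them had enough counts to be tested. By complex, the rows numbered 36 for complex I, 4 for complex II, 8 for complex III, 19 for complex IV and 17 for complex V. RNA came from leukemic cells of C57BL/6 mice, sorted for high surface c-Kit, which marks immature blood cells. The 2 Msi2 -/- mice lacked Msi2, which encodes an RNA-binding protein. The 2 control mice carried Msi2 flox/flox alleles, in which loxP sites lie within an intact gene. The series title places the cells in an MLL leukemia. The sources used here do not give the driving fusion, the Cre line or the ages of the mice. Each library is 1 mouse, so p-values measure the spread between these few mice.

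Complex I takes electrons from NADH and complex II takes them from succinate, and both pass them to ubiquinone. Complex III hands them to cytochrome c and complex IV to oxygen, and the proton gradient that builds up drives ATP synthesis by complex V. Most subunits are encoded in the nucleus, and complexes I, III, IV and V also hold subunits encoded by mitochondrial DNA, which are not analysed here. Leukemia stem cells of the myeloid lineage are known in the literature for their reliance on this pathway.

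Gene rows held 87564774 and 78659396 counts in Msi2 -/- replicates 1 and 2, and 79845492 and 72273679 counts in control replicates 1 and 2. Msi2 itself had 8 and 17 counts in the Msi2 -/- libraries, against 2804 and 3562 counts in the controls (log2 fold change -8.07, edgeR adjusted p = 0.122, DESeq2 adjusted p = 6.35e-80). Kit had 68.1 and 57.1 CPM (a gene's counts divided by the size of its library) in the Msi2 -/- libraries and 50.4 and 51.9 CPM in the controls. The 8 immature myeloid markers, Kit among them, summed to 7472 and 9900 CPM in the Msi2 -/- libraries, against 9905 and 10394 CPM in the controls. Mpo, the myeloperoxidase of myeloid progenitors, had 2117 and 2159 CPM in the Msi2 -/- libraries, against 4001 and 4953 CPM in the controls (DESeq2 adjusted p = 8.40e-12, edgeR adjusted p = 0.265). Myb had 499.8 and 591 CPM in the Msi2 -/- libraries, against 739.8 and 689.8 CPM in the controls (DESeq2 adjusted p = 0.0417, edgeR adjusted p = 0.335). The other immature markers were mostly on the other side. Kit, Ptprc, Cd34, Meis1 and Elane had log2 fold changes of 0.29, 0.12, 0.45, 0.25 and 0.29, and Hoxa9 had -0.11. Among these, only Kit had groups that did not overlap. The 9 late neutrophil markers summed to 1398 and 2225 CPM in the Msi2 -/- libraries, against 1025 and 678 CPM in the controls, led by S100a8, S100a9 and Ngp. Not all 9 had that direction: Cxcr2, for example, had 1.58 and 3.57 CPM in the Msi2 -/- libraries, against 6.59 and 9.40 CPM in the controls, and Mmp8 and Mmp9 had log2 fold changes of -1.81 and -0.71. The 8 skeletal muscle markers summed to 45.1 and 16.4 CPM in the Msi2 -/- libraries, against 12.3 and 12.8 CPM in the controls, and Myh1, Myh4 and Mb were at 0 in every library. The 6 B cell markers summed to 20.9 and 18.7 CPM in the Msi2 -/- libraries, against 26.7 and 26.7 CPM in the controls, nearly all from Cd79b, while Pax5, Ebf1 and Ms4a1 were at 0. The 6 T cell markers summed to 6.68 and 9.48 CPM in the Msi2 -/- libraries, against 9.03 and 10.002 CPM in the controls, nearly all from Lck, while Cd3e, Cd3g and Cd8a were at 0. Xist, which is transcribed from the inactive X chromosome of female cells, had 0.469 and 0.624 CPM in the Msi2 -/- libraries, against 1455 and 654 CPM in the controls. If this marks a difference in sex, genotype and sex cannot be told apart. The members on the X chromosome are Ndufa1, Ndufb11 and Cox7b. The library names begin with a number that is shared within a genotype and differs between genotypes. The labels do not say what it means; should it be a batch, that batch and genotype cannot be told apart. The part of these differences in the results below was not tested.

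OXPHOS transcripts as a group stood at nearly the same level in Msi2 -/- and control cells. The 84 rows summed to 13228 and 13316 CPM in the Msi2 -/- libraries, against 13147 and 13600 CPM in the controls, so the groups overlapped. CPM here are scaled by the trimmed mean of M values (TMM), the library scaling of edgeR. In bulk RNA, fewer cells of a type and less RNA per cell cannot be told apart. Log2 fold changes (Msi2 -/- over control) were positive in 42 and negative in 39 of the 81 tested rows. Their median was 0.0081, beside a median of -0.002 over all 13215 genes tested. With upper-quartile scaling the median of the 81 rows was -0.0144, and that of all genes -0.0247. By edgeR's quasi-likelihood test with an adjusted p under 0.05, 0 of the 81 rows passed, where the same rule called 0.00757% of all genes, which is 1 gene. Limma-voom also called 0 of the 81, and 0% of all genes. Msi2, the deleted gene, did not pass edgeR's threshold either (edgeR adjusted p = 0.122). Here and below, a row that did not pass is therefore not shown to be unchanged. At an unadjusted edgeR p under 0.05, 3 rows were higher, beside 6.69% of all genes, and 3 were lower, beside 6.17% of all genes. DESeq2 called 1 row higher (Cox5a), beside 3.1% of all genes, and 0 rows lower, beside 2.71% of all genes.

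The fold changes of OXPHOS rows lay closer to 0 than those of genes at large. The 5th and 95th percentiles of log2 fold change were -0.27 and 0.20 over the OXPHOS rows, and -1.08 and 0.67 over all genes tested. The median size of the log2 fold change was 0.0773 for the OXPHOS rows and 0.177 for all genes. For 73 of the 81 rows (90.1%) the 95% interval of the fold change lay wholly within 1.5-fold in either direction, beside 48.2% of all genes tested. Abundance was not matched between the OXPHOS rows and other genes, so these shares are a description. The 8 remaining rows were the low isoforms Cox4i2, Cox6a2, Cox6b2 and Cox7a1, and Ndufa13, Ndufs5, Uqcrq and Atp5s. In 20 rows the Msi2 -/- libraries both lay above the controls and in 18 rows both lay below, beside 23.7% and 24.6% of all genes. As shares of 81 rows these counts are close to the background.

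**Figure D1:**
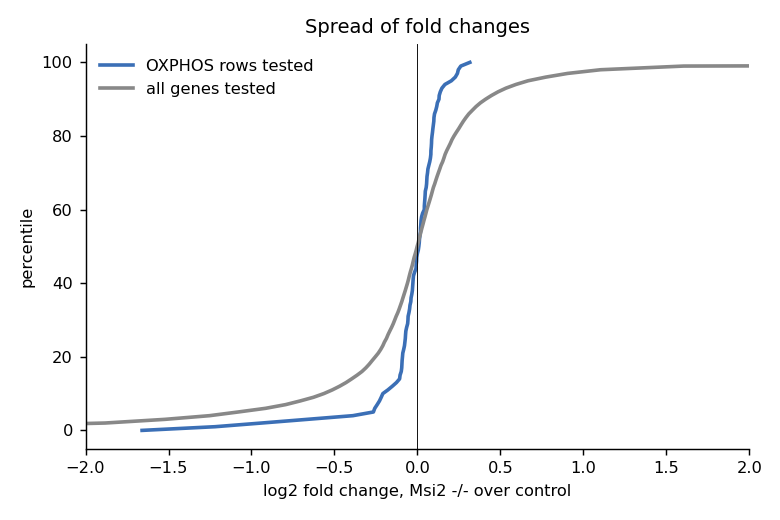
Percentiles of the log2 fold change (Msi2 -/- over control, horizontal axis, limited to between -2 and 2) over the 81 tested OXPHOS rows and over all 13215 genes tested. The OXPHOS curve is steeper, with its 5th and 95th percentiles at -0.27 and 0.20, and its lowest values are those of Cox6a2, Cox6b2 and Cox4i2.

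**Figure D2:**
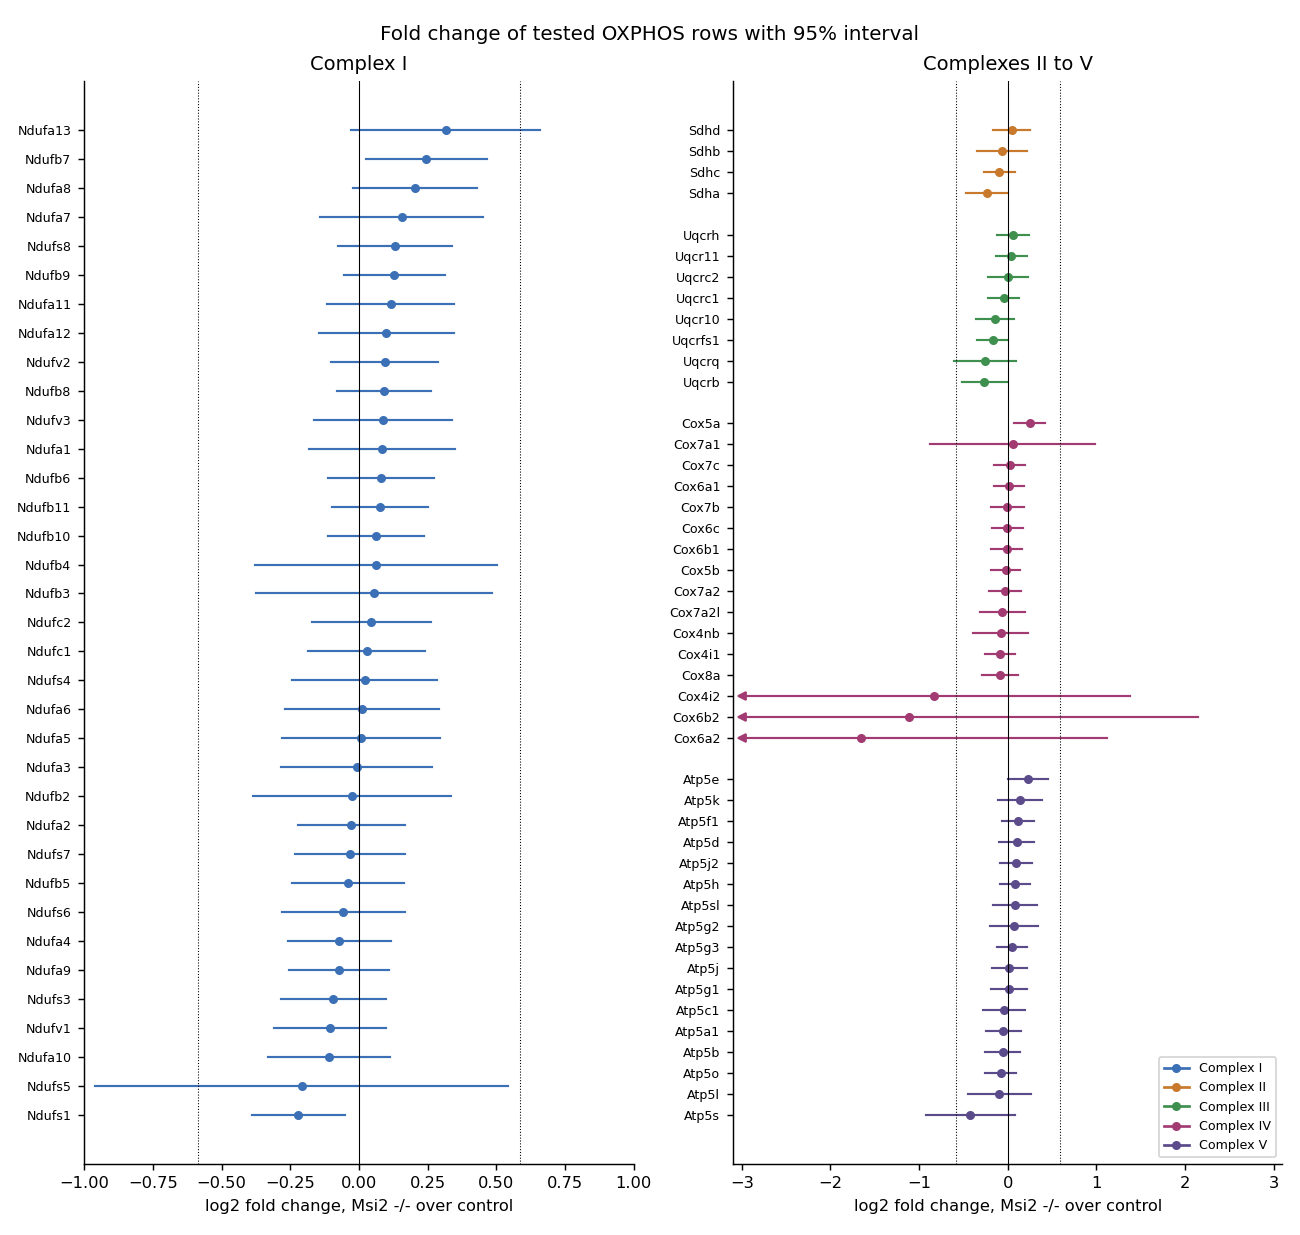
Log2 fold change of 80 of the 81 tested OXPHOS rows with the 95% interval from edgeR (2 mice per genotype), sorted within each complex. Dotted lines mark 1.5-fold, the panels have different horizontal ranges, and arrows mark intervals that run below -3. Intervals of 72 of the 80 rows drawn lie within the dotted lines.

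The members with the smallest p-values pointed in both directions. Higher in both Msi2 -/- libraries were Cox5a, an accessory subunit of complex IV, Ndufb7, an accessory subunit in the distal membrane arm of complex I, and Atp5e, the epsilon subunit of the catalytic head of ATP synthase. Cox5a had 239 and 231 CPM in the Msi2 -/- libraries, against 194 and 202 CPM in the controls, with a log2 fold change of 0.25 (SE 0.0660, 95% interval 0.07 to 0.43, edgeR adjusted p = 0.333, DESeq2 adjusted p = 0.0303). This was the only call in the pathway and it rested on DESeq2. Ndufb7 had 159.9 and 170.2 CPM in the Msi2 -/- libraries, against 133 and 146 CPM in the controls (log2 fold change 0.25, SE 0.0814, edgeR adjusted p = 0.362). Atp5e had 196 and 214 CPM in the Msi2 -/- libraries, against 181 and 167 CPM in the controls (log2 fold change 0.23, SE 0.0837, edgeR adjusted p = 0.382). In each of the 3 genes the groups did not overlap, and the gap was widest for Cox5a. The genes of this paragraph were picked for small p-values, which favours such gaps. Over all genes 23.7% lay above the controls in this way and 24.6% below. Lower in both Msi2 -/- libraries were Ndufs1, the iron-sulfur subunit of complex I that receives electrons from the flavoprotein, Sdha, the flavoprotein of complex II, and Uqcrb, an accessory subunit of complex III. Ndufs1 had 129 and 133 CPM in the Msi2 -/- libraries, against 151 and 154 CPM in the controls (log2 fold change -0.22, SE 0.0624, 95% interval -0.39 to -0.05, edgeR adjusted p = 0.336). Sdha had 305 and 286 CPM in the Msi2 -/- libraries, against 329 and 366 CPM in the controls (log2 fold change -0.23, SE 0.0865, 95% interval -0.47 to -0.0007, edgeR adjusted p = 0.388). Uqcrb had 119 and 121 CPM in the Msi2 -/- libraries, against 154 and 134 CPM in the controls (log2 fold change -0.27, SE 0.0937, 95% interval -0.52 to -0.01, edgeR adjusted p = 0.378). The interval of Sdha ended almost at 0.

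Promoter sequence was at hand for 69 of the 84 members, as the 250 bases before and 50 after the first listed start of each gene in RefSeq, build GRCm38.p6. Nuclear respiratory factor 1 (NRF1), ETS-family factors such as GABP, and YY1 are known regulators of OXPHOS genes. The letters searched, on both strands and allowing overlaps, were GCGCA and GCGC with any base between them for NRF1, CCGGAAG for ETS and AAGATGGCG for YY1. NRF1 letters were in 16 of 69 members (23.2%), in 4.78% of all 27025 promoters and in 10.4% of the 10493 promoters of tested genes. ETS letters were in 15 (21.7%), in 9.12% of all promoters and in 18.1% of those of tested genes. YY1 letters were in 7 (10.1%), in 1.49% of all promoters and in 3.16% of those of tested genes. A match is a description of the letters and not of binding. Of the 6 members above, Ndufs1 and Uqcrb had no promoter sequence, though both had a smaller p than Sdha. Cox5a, Ndufb7, Atp5e and Sdha had one, and these are printed. They lie at chr9:57520982-57521281 (plus strand), chr8:83566508-83566807 (plus strand), chr2:174464052-174464351 (minus strand) and chr13:74350191-74350490 (minus strand), each read 5′ to 3′ along the gene, with matches in capitals. Sdha, lower in the Msi2 -/- libraries, held 3 NRF1 matches, Ndufb7 and Atp5e held 1 ETS match each, and Cox5a held none.
Cox5a: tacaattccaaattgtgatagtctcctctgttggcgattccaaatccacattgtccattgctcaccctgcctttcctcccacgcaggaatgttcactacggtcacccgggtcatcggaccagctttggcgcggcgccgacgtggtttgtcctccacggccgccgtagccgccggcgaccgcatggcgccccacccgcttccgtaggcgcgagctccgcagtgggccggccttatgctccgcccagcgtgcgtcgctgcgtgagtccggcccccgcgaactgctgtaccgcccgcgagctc
Ndufb7: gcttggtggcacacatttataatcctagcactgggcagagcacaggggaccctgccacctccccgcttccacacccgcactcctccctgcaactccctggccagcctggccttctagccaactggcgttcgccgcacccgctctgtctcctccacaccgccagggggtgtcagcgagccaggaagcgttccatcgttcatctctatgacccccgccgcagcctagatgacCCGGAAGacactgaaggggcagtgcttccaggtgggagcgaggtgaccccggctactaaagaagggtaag
Atp5e: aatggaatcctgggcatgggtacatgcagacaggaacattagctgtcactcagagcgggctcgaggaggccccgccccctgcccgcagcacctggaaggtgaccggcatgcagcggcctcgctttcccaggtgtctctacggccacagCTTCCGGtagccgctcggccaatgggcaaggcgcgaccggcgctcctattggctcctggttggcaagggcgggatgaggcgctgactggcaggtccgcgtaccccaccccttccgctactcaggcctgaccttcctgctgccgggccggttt
Sdha: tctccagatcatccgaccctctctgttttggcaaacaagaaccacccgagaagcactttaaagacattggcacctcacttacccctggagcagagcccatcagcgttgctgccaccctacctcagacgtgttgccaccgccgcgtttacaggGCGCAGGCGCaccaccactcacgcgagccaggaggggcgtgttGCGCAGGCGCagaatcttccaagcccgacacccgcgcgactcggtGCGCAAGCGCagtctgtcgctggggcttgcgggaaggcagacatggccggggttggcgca

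Complex I, the NADH dehydrogenase, summed to 3294 and 3408 CPM in the Msi2 -/- libraries, against 3221 and 3319 CPM in the controls. Log2 fold changes were positive in 23 and negative in 13 of its 36 rows. Their median was 0.0435, but 0.0891 without Msi2 -/- replicate 1 and -0.0009 without Msi2 -/- replicate 2. Its library medians against the control mean were -0.0013 and 0.0806 in the Msi2 -/- libraries, and -0.0276 and 0.0276 in the controls, so the groups overlapped. None of the 36 passed edgeR's adjusted p of 0.05. Of the core subunits, which carry out electron transfer, Ndufs1 is given above. Ndufv1 had 118 and 114 CPM in the Msi2 -/- libraries, against 119.5 and 130.1 CPM in the controls (log2 fold change -0.10, SE 0.0754). It binds NADH through its flavin. Ndufv2 had 105 and 110.2 CPM in the Msi2 -/- libraries, against 97.6 and 104 CPM in the controls (log2 fold change 0.09, SE 0.0719). The partner of Ndufv1, it carries a cluster of the same module. Ndufs3 had 54.9 and 54.9 CPM in the Msi2 -/- libraries, against 57.4 and 59.6 CPM in the controls (log2 fold change -0.09, SE 0.0710). It is a core subunit of the Q module. Ndufs7 had 84.5 and 81.1 CPM in the Msi2 -/- libraries, against 81.2 and 88.0 CPM in the controls (log2 fold change -0.03, SE 0.0743). Ndufs8 had 66.5 and 61.4 CPM in the Msi2 -/- libraries, against 58.2 and 58.5 CPM in the controls (log2 fold change 0.13, SE 0.0772). Both carry iron-sulfur clusters. Of these core genes, Ndufs1, Ndufs3 and Ndufv1 had both Msi2 -/- libraries below the controls, beside 24.6% of all genes. Ndufs8 and Ndufv2 had both above, beside 23.7% of all genes. Over all 36 rows of complex I the groups did not overlap in 47.2%, close to the 48.3% of all genes.

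By module of complex I, median log2 fold changes were -0.0028 over the 8 genes of the N module, which oxidises NADH, and 0.0097 over the 8 of the Q module, which reduces ubiquinone. They were 0.0458 over 9 genes of the proximal membrane arm and 0.0703 over 10 of the distal membrane arm, here the Ndufb genes. These modules were set after values had been seen, so they carry no test. In the distal arm 8 of 10 genes lay above 0, in 6 both Msi2 -/- libraries lay above the controls, beside 23.7% of all genes, and in none both lay below. Ndufb7 led this arm, and Ndufb6, Ndufb8, Ndufb9, Ndufb10 and Ndufb11 made up the rest of the 6. Ndufb9 had 118 and 119 CPM in the Msi2 -/- libraries, against 105 and 112 CPM in the controls (log2 fold change 0.13, SE 0.0678). The highest positive log2 fold change of the tested members was that of Ndufa13, an accessory subunit also known as GRIM-19. Ndufa13 had 99.9 and 121 CPM in the Msi2 -/- libraries, against 83.7 and 94.2 CPM in the controls (log2 fold change 0.32, SE 0.127, 95% interval -0.03 to 0.66, edgeR adjusted p = 0.407). Without Msi2 -/- replicate 2 it was 0.17, below the 0.27 of Cox5a. Ndufa8 had 98.6 and 90.2 CPM in the Msi2 -/- libraries, against 85.1 and 78.8 CPM in the controls (log2 fold change 0.20, SE 0.0831). An accessory subunit of the proximal arm, it did not overlap between groups. Ndufa4, once counted with complex I and now regarded as a subunit of complex IV, had 179 and 189 CPM in the Msi2 -/- libraries and 189 and 198 CPM in the controls (log2 fold change -0.07, SE 0.0692).

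**Figure D3:**
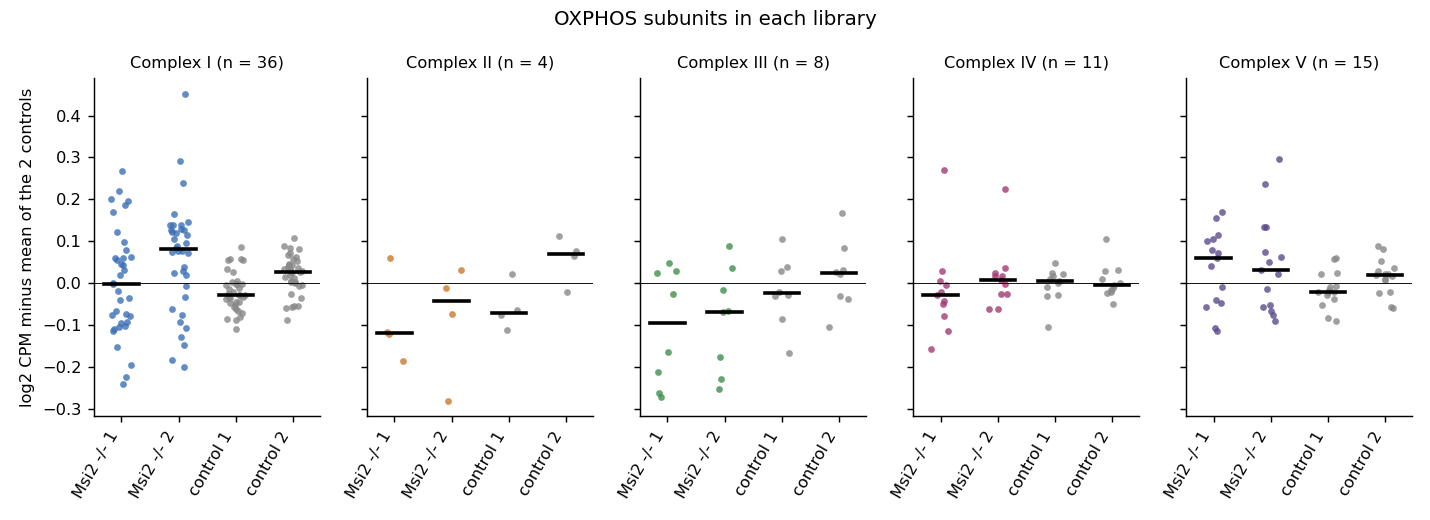
Log2 CPM of each of 74 OXPHOS subunits minus the mean of the 2 controls, by library and complex; tissue-restricted isoforms and rows that are not subunits are left out, and bars are medians. In complex III both Msi2 -/- medians lie below both control medians, in complex V both lie above them, and in complex I the median of Msi2 -/- replicate 1 lies between the control medians and that of replicate 2 above them.

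Complex II, succinate dehydrogenase, joins the tricarboxylic acid (TCA) cycle to the respiratory chain and is the only complex with no mitochondrially encoded subunit. Its 4 genes summed to 797 and 783 CPM in the Msi2 -/- libraries, against 812 and 883 CPM in the controls, with a median log2 fold change of -0.0816. Sdha, above, had the largest difference. Sdhb had 91.4 and 98.6 CPM in the Msi2 -/- libraries, against 91.9 and 107 CPM in the controls (log2 fold change -0.07, SE 0.104), and it holds the iron-sulfur clusters. Sdhc had 133 and 137 CPM in the Msi2 -/- libraries, against 147 and 142 CPM in the controls (log2 fold change -0.09, SE 0.0637). Sdhd had 267 and 261 CPM in the Msi2 -/- libraries, against 245 and 268 CPM in the controls (log2 fold change 0.04, SE 0.0756). Sdhc and Sdhd anchor the enzyme in the membrane. Only Sdha and Sdhc, 2 of 4 genes beside 24.6% of all genes, had both Msi2 -/- libraries below the controls, and neither passed edgeR's adjusted p of 0.05. The median was -0.0353 without Msi2 -/- replicate 1 and -0.0325 without control replicate 2.

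Complex III, the cytochrome bc1 complex, summed to 1357 and 1361 CPM in the Msi2 -/- libraries, against 1414 and 1470 CPM in the controls, which did not overlap. The median log2 fold change over its 8 genes was -0.0927, 5 genes lay below 0 and 3 above, and in 4 genes both Msi2 -/- libraries lay below both controls, beside 24.6% of all genes. These were Uqcrb, Uqcrfs1, Uqcrq and Uqcr10. Uqcrfs1 had 163 and 162 CPM in the Msi2 -/- libraries, against 179 and 187 CPM in the controls (log2 fold change -0.17, SE 0.0635, 95% interval -0.34 to 0.0011, edgeR adjusted p = 0.393). This is the Rieske iron-sulfur protein, which passes electrons to cytochrome c1. Uqcr10 had 104 and 114 CPM in the Msi2 -/- libraries, against 118 and 122 CPM in the controls (log2 fold change -0.14, SE 0.0788), and it is a small accessory subunit. Uqcrq had 134 and 138 CPM in the Msi2 -/- libraries, against 144 and 181 CPM in the controls (log2 fold change -0.26, SE 0.129), where control 2 was the highest. The core proteins Uqcrc1 and Uqcrc2 overlapped between groups. Uqcrc1 had 344 and 335 CPM in the Msi2 -/- libraries, against 344 and 357 CPM in the controls (log2 fold change -0.05, SE 0.0652). Uqcrc2 had 229 and 222 CPM in the Msi2 -/- libraries, against 211 and 238 CPM in the controls (95% interval -0.23 to 0.23). None of the 8 passed edgeR's adjusted p of 0.05, and the median was -0.0592 without Msi2 -/- replicate 1 and -0.0467 without control replicate 2.

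Complex IV, cytochrome c oxidase, had nearly equal sums, with 2340 and 2382 CPM in the Msi2 -/- libraries and 2381 and 2385 CPM in the controls. Over 16 tested rows the median log2 fold change was -0.0265, and over the 11 subunits without tissue-restricted isoforms and Cox4nb it was -0.0086. The 10 subunits other than Cox5a ranged in log2 fold change between -0.09 (Cox8a) and 0.02 (Cox7c). Cox4i1 had 396 and 411 CPM in the Msi2 -/- libraries, against 426 and 432 CPM in the controls (log2 fold change -0.09, SE 0.0640). It is the isoform found in nearly all tissues. Cox6a1 had 279.5 and 275 CPM in the Msi2 -/- libraries, against 277 and 271 CPM in the controls (log2 fold change 0.02, SE 0.0623). Cox6b1 had 210.3 and 220.4 CPM in the Msi2 -/- libraries, against 218 and 215 CPM in the controls (95% interval -0.18 to 0.17). Cox7a2, the isoform of most tissues, had 168 and 179.6 CPM in the Msi2 -/- libraries and 177 and 177 CPM in the controls, and Cox7a2l had 125 and 123 CPM in the Msi2 -/- libraries, against 119.8 and 139 CPM in the controls (log2 fold change -0.06, SE 0.0939). Cox7a2l helps join complexes III and IV, and C57BL/6 mice are known to carry a short form of it. Cox7b had 198 and 198 CPM in the Msi2 -/- libraries and 205 and 192 CPM in the controls, and Cox8a had 249 and 273 CPM in the Msi2 -/- libraries and 279 and 277 CPM in the controls.

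Isoforms of complex IV restricted to muscle, lung or testis stayed under 10 CPM. Cox6a2 had 0.595 and 0.299 CPM in the Msi2 -/- libraries, against 0.358 and 2.48 CPM in the controls, and its log2 fold change was -1.66, but 0.32 without control replicate 2. This is the isoform of heart and skeletal muscle. Cox6b2 had 5.59 and 0.468 CPM in the Msi2 -/- libraries, against 9.41 and 3.69 CPM in the controls, with a 95% interval of -4.37 to 2.15. Cox4i2 had 0.446 and 0.0910 CPM in the Msi2 -/- libraries, against 0.481 and 0.480 CPM in the controls, from 39 and 7 counts in the Msi2 -/- libraries and 39 and 35 counts in the controls. Cox7a1 had 2.11 and 1.46 CPM in the Msi2 -/- libraries, against 1.86 and 1.56 CPM in the controls. Cox7b2 and Cox8c were at 0 in every library, and Cox8b had 1 count in control 2 alone, so none of the 3 could be tested. At this depth a count of 0 allows up to between 0.0343 and 0.0412 CPM, from 3 counts per library at the TMM-scaled sizes, which covers counting error only. Among the skeletal muscle markers, Ckm, the muscle creatine kinase, had 39.3 and 9.37 CPM in the Msi2 -/- libraries and 4.88 and 6.32 CPM in the controls, while Myh1, Myh4 and Mb were at 0. The muscle list was highest in Msi2 -/- replicate 1, and its part in these isoform values was not tested. Cox4nb, a symbol for Emc8, is not a subunit of complex IV and had 56.5 and 50.5 CPM in the Msi2 -/- libraries and 52.2 and 60.6 CPM in the controls.

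Complex V, the ATP synthase, had the largest summed CPM of the 5 complexes, with 5440 and 5382 CPM in the Msi2 -/- libraries, against 5318 and 5542 CPM in the controls. Of its 17 rows 11 lay above 0 and 6 below, with a median log2 fold change of 0.0472, and 0 passed edgeR's adjusted p of 0.05. Library medians over its 15 subunits were 0.0609 and 0.0303 against the control mean in the Msi2 -/- libraries, above the -0.0202 and 0.0202 of the controls, while the summed CPM overlapped. In the catalytic head, Atp5b had 1737 and 1716 CPM in the Msi2 -/- libraries, against 1732 and 1861 CPM in the controls (log2 fold change -0.06, SE 0.0747). Atp5a1 had 1262 and 1193 CPM in the Msi2 -/- libraries, against 1250 and 1288 CPM in the controls (log2 fold change -0.05, SE 0.0715). The beta and alpha subunits form the ring that makes ATP. Atp5c1 had 273 and 282 CPM in the Msi2 -/- libraries, against 267 and 303 CPM in the controls (log2 fold change -0.04, SE 0.0874), and Atp5d had 275 and 255 CPM in the Msi2 -/- libraries, against 242 and 252 CPM in the controls (log2 fold change 0.10, SE 0.0731). These are the gamma and delta subunits of the central stalk. Over 10 genes of the membrane part and the peripheral stalk, the median was 0.0594, 8 lay above 0, and 5 had both Msi2 -/- libraries above the controls, beside 23.7% of all genes, with Atp5k the largest at a log2 fold change of 0.14 (SE 0.0914). Atp5f1 had 266 and 272 CPM in the Msi2 -/- libraries, against 242 and 254 CPM in the controls (log2 fold change 0.12, SE 0.0665), and it builds the peripheral stalk. Atp5o and Atp5l lay below the controls. The membrane ring of c subunits has 3 genes that encode the same mature protein. Atp5g1 had 154 and 141 CPM in the Msi2 -/- libraries, against 145 and 147 CPM in the controls. Atp5g2 had 47.9 and 45.1 CPM in the Msi2 -/- libraries, against 41.7 and 46.8 CPM in the controls. Atp5g3 had 351 and 339 CPM in the Msi2 -/- libraries, against 332 and 336 CPM in the controls. Their log2 fold changes were 0.01, 0.07 and 0.05, that of Atp5g1 being -0.0094 with upper-quartile scaling, and only Atp5g3 had groups that did not overlap. Atp5s and Atp5sl, matched by symbol, are not subunits of the enzyme. Atp5s had 7.33 and 8.87 CPM in the Msi2 -/- libraries, against 10.9 and 10.7 CPM in the controls (log2 fold change -0.42, SE 0.184, edgeR adjusted p = 0.425). Atp5sl had 37.2 and 39.2 CPM in the Msi2 -/- libraries, against 36.6 and 35.6 CPM in the controls (log2 fold change 0.08, SE 0.0919).

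Between genes, levels were set per length, as mean CPM per kb of the shortest RefSeq-linked coding transcript, since CPM alone favours long transcripts. Atp5b stood highest, at 901 CPM per kb in the Msi2 -/- cells and 938 in the controls. Among the next in Msi2 -/- cells were Cox4i1 at 542 and 576, Atp5a1 at 497 and 514, Atp5e at 487 and 414, Cox6a1 at 486 and 479.7, Atp5g3 at 483 and 467 and Cox8a at 474 and 505, in Msi2 -/- and control cells in each case. The order was not the same in the controls, where Cox8a stood above Cox6a1, Atp5g3 and Atp5e. Median levels were 109 in the Msi2 -/- cells and 105 CPM per kb in the controls for complex I, 92.6 and 104 for complex II, 215 and 217 for complex III, 141 and 139 for complex IV, and 248 and 245 for complex V. These medians cover all rows, with tissue-restricted isoforms and rows that are not subunits. Over subunits only they were 348 in the Msi2 -/- cells and 307 in the controls for complex IV. For complex V they were 275 and 265. The middle subunit of complex IV was Cox6c in the Msi2 -/- cells and Cox5a in the controls, and Cox6c itself had 348 and 349. Transcript lengths come from GENCODE M21, a later mouse build than the mm9 of the counts, so a length can differ from the one counted. The c-subunit genes were not equal in level: Atp5g3 had 483 CPM per kb in the Msi2 -/- cells and 467 in the controls, Atp5g1 248 and 245, and Atp5g2 63.6 and 60.5. Some members stood far below the rest of their complex in both genotypes. Ndufs5 had 3.47 CPM per kb in the Msi2 -/- cells and 4.01 in the controls, and Ndufb4 had 9.84 and 9.43.

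**Figure D4:**
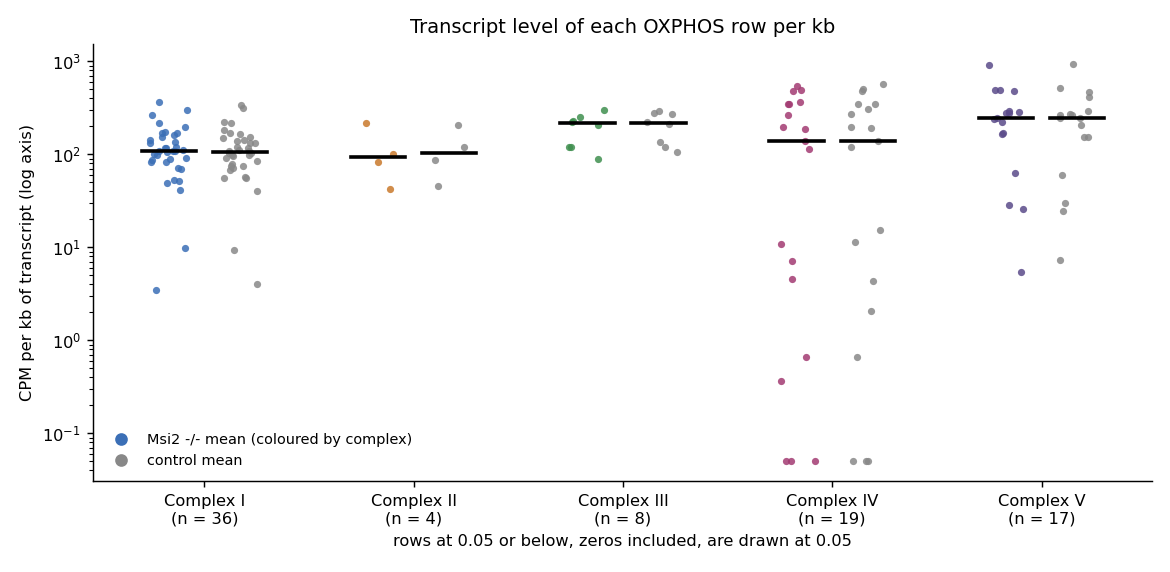
Mean transcript level of each OXPHOS row in CPM per kb on a log axis, by complex, with Msi2 -/- to the left and control to the right, and medians as bars. Rows at 0.05 or below, which are Cox7b2, Cox8b and Cox8c, are drawn at 0.05. Medians of the genotypes over all rows drawn lie close together in each complex. The complex IV median takes in the low tissue-restricted isoforms and Cox4nb, which is not a subunit.

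OXPHOS subunits have many processed pseudogenes and near copies, and how the authors treated reads with several alignments is not stated in the labels. In GENCODE M21, 37 of the 84 members had no 50-base window shared with a transcript of another gene, and 13 had more than 30% of their windows shared. The median level of those 13 was 106 CPM per kb, against 159 for the other 61 subunits. The 13 were Atp5g2 at 87.4%, Atp5l at 84.8%, Cox7c at 53.0%, Atp5h at 50.5%, Uqcrb at 43.4%, Ndufs5 at 41.2%, Ndufs3 at 39.7%, Atp5f1 at 38.7%, Ndufb4 at 37.0%, Ndufb6 at 34.1%, Atp5o at 34.0%, Ndufb2 at 33.5% and Cox5a at 32.0%. The counts close with a row named alignment_not_unique, which belongs to no gene. Reads of these members could have been left out of their counts. Their values are therefore uncertain, including the higher Cox5a and the lower Uqcrb values. For 25 members an exon also overlapped another annotated gene. Windows shared with such a gene were not set apart from those shared with distant copies. The part of shared reads in the differences was not tested.

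Genes that work with the complexes were described from lists chosen with earlier results known, and none passed edgeR's adjusted p of 0.05. At an unadjusted edgeR p under 0.05, 2 of 13 TCA cycle enzymes, 3 of 15 biogenesis regulators, 2 of 18 carriers and 2 of 32 assembly factors were lower, beside 6.17% of all genes. By the same rule 1 assembly factor was higher, beside 6.69% of all genes. TCA cycle enzymes, which feed electrons to complexes I and II, had a median log2 fold change of -0.1226 over 13 genes, with 10 below 0. In 8 of the 13 both Msi2 -/- libraries lay below the controls, beside 24.6% of all genes. The median was between -0.1321 and -0.0839 when 1 mouse was left out. Fh1, the fumarase that acts after succinate dehydrogenase, was the only one called by DESeq2, beside 2.71% of all genes called lower. Fh1 had 177 and 182 CPM in the Msi2 -/- libraries, against 209 and 219 CPM in the controls (log2 fold change -0.25, SE 0.0657), with an adjusted p of 0.0370 by DESeq2 and 0.333 by edgeR. Dld had 187 and 173 CPM in the Msi2 -/- libraries, against 206 and 248 CPM in the controls (log2 fold change -0.34, SE 0.116), and it is the shared flavoprotein of the dehydrogenase complexes. Citrate synthase, Cs, lay on the other side, with 483 and 477 CPM in the Msi2 -/- libraries and 436 and 446 CPM in the controls. Regulators of mitochondrial DNA and biogenesis had a median of -0.1742 over 15 genes, with 11 below 0, and it was -0.1105 without control replicate 2. Tfam had 62.7 and 60.4 CPM in the Msi2 -/- libraries, against 69.8 and 78.4 CPM in the controls (log2 fold change -0.27, SE 0.0878), and it packages mitochondrial DNA. Peo1 had 36.2 and 34.3 CPM in the Msi2 -/- libraries, against 43.9 and 42.9 CPM in the controls (log2 fold change -0.30, SE 0.0897), and it encodes the Twinkle helicase. Ppargc1b had 3.74 and 5.71 CPM in the Msi2 -/- libraries, against 7.70 and 8.38 CPM in the controls (log2 fold change -0.77, SE 0.283), a coactivator of OXPHOS genes. None of the 3 passed edgeR's adjusted p of 0.05.

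Electron and inner membrane carriers had a median log2 fold change of -0.0687 over 18 genes, with 5 above 0 and 13 below. It was -0.0364 without Msi2 -/- replicate 2 and -0.0387 without control replicate 2. Coq9 and Coq4, which act in ubiquinone synthesis, had the smallest p. Coq9 had 58.2 and 61.3 CPM in the Msi2 -/- libraries, against 70.2 and 74.9 CPM in the controls (log2 fold change -0.28, SE 0.0762, edgeR adjusted p = 0.335). Coq4 had 24.0 and 21.8 CPM in the Msi2 -/- libraries, against 28.6 and 30.02 CPM in the controls (log2 fold change -0.36, SE 0.113, edgeR adjusted p = 0.358). Assembly factors of the complexes had a median of -0.0275 over 32 genes, with 12 above 0 and 20 below. It was -0.0002 without Msi2 -/- replicate 2 and -0.0449 without control replicate 1. Acad9, an assembly factor of complex I, had 75.0 and 80.9 CPM in the Msi2 -/- libraries, against 91.6 and 93.8 CPM in the controls (log2 fold change -0.25, SE 0.0714). Ndufaf3, another, had 34.6 and 35.9 CPM in the Msi2 -/- libraries, against 29.6 and 28.4 CPM in the controls (log2 fold change 0.28, SE 0.0962). Lrpprc, which binds mitochondrial transcripts, had 139.6 and 129.8 CPM in the Msi2 -/- libraries, against 156 and 158 CPM in the controls (log2 fold change -0.22, SE 0.0700). Sdhaf1 and Sdhaf2 serve complex II. Sdhaf1 had 19.5 and 20.02 CPM in the Msi2 -/- libraries, against 20.5 and 22.3 CPM in the controls. Sdhaf2 had 63.7 and 66.5 CPM in the Msi2 -/- libraries, against 61.4 and 61.4 CPM in the controls. For complex III, the listed factors of smallest p were Lyrm7 and Ttc19. Lyrm7 had 2.63 and 3.16 CPM in the Msi2 -/- libraries, against 3.29 and 4.14 CPM in the controls. Ttc19 had 19.6 and 21.4 CPM in the Msi2 -/- libraries, against 19.6 and 23.9 CPM in the controls. Fam36a, the older symbol of Cox20, serves complex IV, and Fam36a had 18.3 and 20.6 CPM in the Msi2 -/- libraries, against 16.5 and 14.8 CPM in the controls. Tmem70 and Atpaf2 serve complex V. Tmem70 had 52.5 and 49.0 CPM in the Msi2 -/- libraries, against 52.6 and 56.5 CPM in the controls. Atpaf2 had 48.0 and 44.9 CPM in the Msi2 -/- libraries, against 47.8 and 47.9 CPM in the controls. Of these 7 genes Fam36a and Sdhaf2 had both Msi2 -/- libraries above the controls, and Sdhaf1, Lyrm7 and Tmem70 both below. The 7 were named for the smallest p in their lists, which favours such gaps. Over all 32 assembly factors 6 lay above and 11 below in this way, beside 23.7% and 24.6% of all genes. The difference between any of these lists and the OXPHOS members was not tested.

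**Figure D5:**
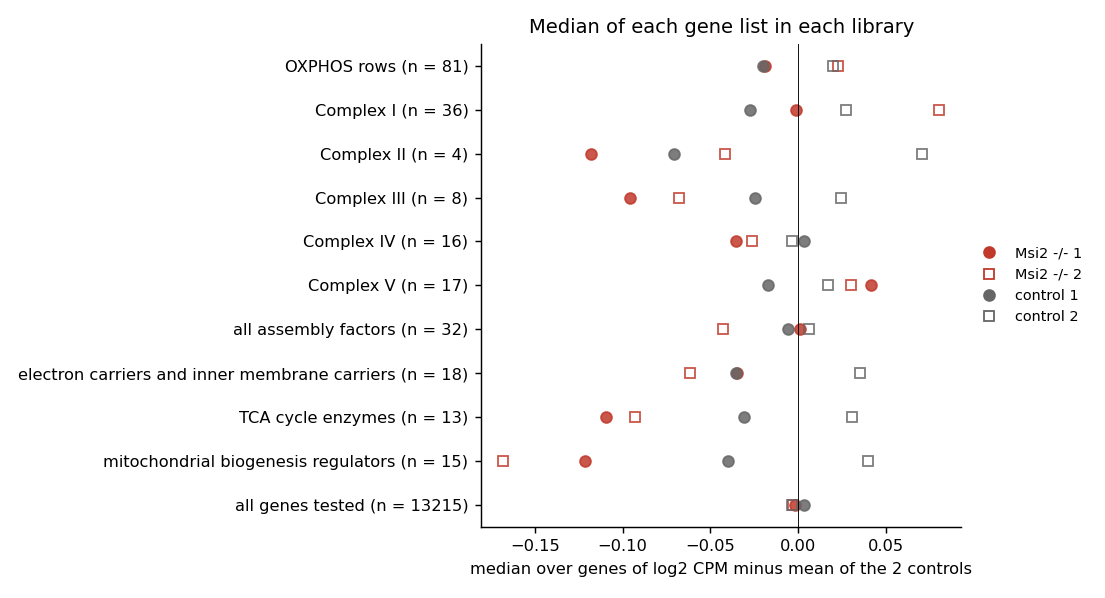
Median over the genes of each list of log2 CPM minus the mean of the 2 controls, with 1 symbol per library. The OXPHOS rows and all genes tested sit near 0 in all 4 libraries. Both Msi2 -/- medians lie below both control medians for complex III, complex IV, TCA cycle enzymes and mitochondrial biogenesis regulators. For complex V both lie above them. The complex IV list drawn takes in low tissue-restricted isoforms and Cox4nb. Over its 11 subunits alone the medians overlapped, at -0.0281 and 0.0068 in the Msi2 -/- libraries and 0.0051 and -0.0051 in the controls.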

How the data were processed

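The members, gene lists and named genes were chosen with earlier results of these data known. Libraries came from 2 Msi2 -/- and 2 control mice, grouped by the genotype label. The authors deposited whole-number read counts for each gene symbol, without normalization. The submitters' processing notes name Trimmomatic, STAR, HTSeq and DESeq with build mm9, without versions. The strand setting, the overlap mode and the annotation are not stated there, so how reads on overlapping genes were assigned is not known. Closing rows that name no gene, among them ambiguous and alignment_not_unique, took between 19.1% and 20.1% of the counts. They entered neither library sizes nor tests.

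In R 4.3.3, edgeR 4.0.16 filtered genes with filterByExpr (minimum count 10, minimum total 15), scaled by TMM and tested group alone, two-sided, with Benjamini-Hochberg adjustment over 13215 genes and a threshold of 0.05. SE is the log2 fold change over the square root of the quasi-likelihood F. DESeq2 1.42.0 and limma-voom (limma 3.58.1) were alternatives, along with other scalings and filters, edgeR's likelihood ratio test and leaving out each mouse. Replicates of a genotype differed far beyond counting noise (chi-square per gene 144 in Msi2 -/- and 59.2 in control), so each counts as 1 sample. Named genes were the core subunits, the isoform families, the 3 rows of smallest p per complex, the 3 highest and 3 lowest fold changes, rows that are no subunit, and 2 genes per pathway list; others were added after their values were seen. The single-gene result of 1 member is not reported here. Fits were checked on simulated data. The changes set there were larger than those of nearly all members, so recovery of changes this small was not checked. Lengths came from GENCODE M21 and promoters from RefSeq GRCm38.p6; both are on another build than the counts.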

Additional observations from a re-analysis of the deposited data

How the results depend on the processing

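Over all genes the count of calls was 1 with edgeR's quasi-likelihood test. It was 776 with DESeq2, 312 with the likelihood ratio test, 6 without a filter, 0 with limma-voom and 0 with the replicate block, and ranged between 0 and 106 over the fits that left out 1 mouse; it was 12 without Msi2 -/- replicate 1 and 106 without Msi2 -/- replicate 2. When a genotype is left with 1 mouse, that mouse is assumed to vary like the other genotype. The count of called OXPHOS rows was 1 with DESeq2 and 0 with every other tool or setting run. Same-numbered mice are not said to be paired, and the correlation of their deviations was 0.0394. With the replicate block 0 OXPHOS rows were called and the OXPHOS median was 0.0064.

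Median log2 fold changes moved as follows. Upper-quartile scaling gave -0.1152 for complex III, -0.0489 for complex IV and 0.0249 for complex V, while it moved the median of all genes to -0.0247. The filter at 1 CPM gave -0.0188 for complex IV. Without tissue-restricted isoforms and rows that are no subunit, chosen after seeing the data, complex IV had -0.0086. Leaving out 1 mouse gave a range between -0.0177 and 0.0319 for all tested OXPHOS rows. The ranges were between -0.0009 and 0.0891 for complex I and between -0.1219 and -0.0325 for complex II. They were between -0.1153 and -0.0467 for complex III, -0.0345 and -0.0162 for complex IV, and 0.0368 and 0.0584 for complex V. The causes were not tested. Among 53 named genes, 609 of 634 alternative values kept their direction and side of the threshold, and 2 passed it with DESeq2 (Cox5a and Fh1). Under upper-quartile scaling the sign turned for Atp5g1 (-0.0094), Cox6a1 (-0.0042) and Uqcrc2 (-0.0185). Leaving out 1 mouse turned the sign of further log2 fold changes, among them the lowest of all members, that of Cox6a2. The ranges were, for Atp5g1 between -0.0480 and 0.0800, Atp5g2 between -0.0064 and 0.1582, Atpaf2 between -0.0841 and 0.0043, Cox4nb between -0.1780 and 0.0370, Cox6a2 between -2.4657 and 0.3243, Cox6b1 between -0.0417 and 0.0337, Cox7a1 between -0.2257 and 0.2976, Cox7a2 between -0.0770 and 0.0260, Cox7a2l between -0.1588 and 0.0514, Cox7b between -0.0504 and 0.0476, Ndufs7 between -0.0859 and 0.0293, Sdhb between -0.1744 and 0.0493, Sdhd between -0.0168 and 0.1120, Ttc19 between -0.2172 and 0.0687, and Uqcrc2 between -0.0758 and 0.0930.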
